A study of Mus musculus with 6 samples.

Results

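The receptors through which hematopoietic growth factors act were measured as RNA in type 1 conventional dendritic cells (cDC1). The cells came from mice with and without a Cre that deletes the genes of the transcription factors c-Jun and JunB. The 9 genes are a list given by name, without a threshold on measured values: Flt3, Kit and Csf1r, Csf2ra, Il3ra, Csf2rb and Csf2rb2, Csf3r, and Il7r. All 9 were found among the 54532 gene identifiers of each library, and all 9 were among the 12894 genes with enough reads to test. Bone marrow was cultured for 8 days with 80 ng/mL FLT3L, and cDC1 were sorted as CD24+ CD11c+ cells lacking B220, CD115 and CD172a. There were 6 libraries, 3 from c-Jun/JunB fl/fl animals, which carry loxP sites at both genes and no Cre, and 3 from animals typed c-Jun/JunB Δ/Δ Itgax-Cre (hereafter Δ/Δ), in which the same floxed genes are deleted by a Cre driven by the promoter of Itgax, the gene of CD11c. The mice were of a mixed 129 Sv × C57BL/6 background, of both sexes and 8 to 16 weeks old. The labels do not say whether the 3 libraries of a genotype came from separate mice. A figure legend of the authors counts the points of these samples as individual mice. The p-values measure the spread between the 3 cultures of each genotype.

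Growth factor receptors determine which cytokines a blood cell responds to. FLT3, KIT and CSF1R are receptor tyrosine kinases that dimerise around FLT3 ligand, stem cell factor, or CSF1 and IL-34. The others lack a kinase of their own and work through JAK kinases and STAT factors: the alpha chains of the GM-CSF and IL-3 receptors (Csf2ra, Il3ra) bind the cytokine and pair with a signalling beta chain, Csf2rb being the shared beta chain and Csf2rb2 a beta chain that mice use for IL-3 alone. CSF3R binds G-CSF and is typical of neutrophils and their precursors, and IL7R pairs with IL2RG to bind IL-7 or with CRLF2 to bind TSLP. FLT3 signalling drives the making of cDC1 from bone marrow progenitors, and GM-CSF signalling sustains CD103+ dendritic cells.

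The libraries held 21693217 to 26788296 reads on genes, and values are CPM, the counts of a gene divided by library size after scaling by TMM factors of 0.989 to 1.01, with the SD over 3 libraries. Genotypes were compared gene by gene with the quasi-likelihood test of edgeR, p being adjusted by Benjamini-Hochberg over all tested genes, with a threshold of 0.05. The cDC1 genes Irf8 (2650.3 to 2876 CPM) and Clec9a (203 to 273 CPM) were present in all 6 libraries. Of 11 cDC1 genes other than Flt3, all tested, edgeR called 3 lower and none higher in Δ/Δ. Among all tested genes 3.88% passed, the share that stands beside each such count below. The 3 were Xcr1 (446 ± 27.1 to 167 ± 40.7 CPM, log2 fold change −1.42, edgeR adjusted p = 0.00812), Tlr3 (−0.77, 0.0226) and Snx22 (−0.86, 0.0375). DESeq2 also called Cd24a and Wdfy4 lower and Cadm1 higher. Junb held 274 to 413 CPM in the fl/fl libraries and 110.3 to 211 CPM in the Δ/Δ ones (log2 fold change −1.02, edgeR adjusted p = 0.0729), and Jun 52.4 to 70.9 and 44.2 to 60.4 CPM (−0.29, 0.345). Of the genes behind the sort, Itgax fell (log2 fold change −1.22, edgeR adjusted p = 0.0147), while Cd24a (−0.30, 0.0605), Ptprc for B220 (0.25, 0.122) and Sirpa for CD172a (−0.21, 0.430) did not pass. The sources used here do not give the part of either gene that Cre removes. How complete the deletion of Jun and Junb was in these libraries was not tested with the reads. The authors measured both transcripts by quantitative RT-PCR in cells sorted from such cultures. They reported the deletion in dendritic cells sorted from spleen and lymph nodes. Reads are summed over sorted cells, so that fewer cells of a type and less RNA per cell cannot be told apart.

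Set on one scale by exon length, the receptors of fl/fl cDC1 formed an abundant and a scarce set. Flt3 led with 116 ± 5.36 CPM per kb of exon, a level above that of 98.4% of the 21223 genes with a read. It was followed by the chains of the GM-CSF receptor, Csf2rb at 70.1 ± 7.79 and Csf2ra at 63.4 ± 2.84 CPM per kb, whose libraries overlapped each other. Csf2rb2 at 50.2 ± 3.53 and Kit at 36.2 ± 4.45 CPM per kb completed the abundant set. Il3ra stood well under these at 6.05 ± 0.368 CPM per kb. The last places belonged to Il7r at 1.44 ± 0.359, Csf1r at 0.872 ± 0.255 and Csf3r at 0.181 ± 0.0883 CPM per kb, of which Il7r and Csf1r overlapped. Csf3r lay above only 34.8% of the genes with a read.

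In Δ/Δ libraries Flt3 was again first, at 118 ± 12.0 CPM per kb, and Il3ra again sixth, at 3.36 ± 0.569 CPM per kb. The order between them was less clear. Csf2ra, at 91.4 ± 16.4 CPM per kb, overlapped Csf2rb at 78.6 ± 31.9, which overlapped Csf2rb2 at 56.8 ± 24.3, which overlapped Kit at 45.4 ± 6.32. At the lower end Csf1r (1.09 ± 0.103 CPM per kb), Il7r (0.868 ± 0.725) and Csf3r (0.807 ± 0.483) each overlapped the next.

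**Figure D1:**
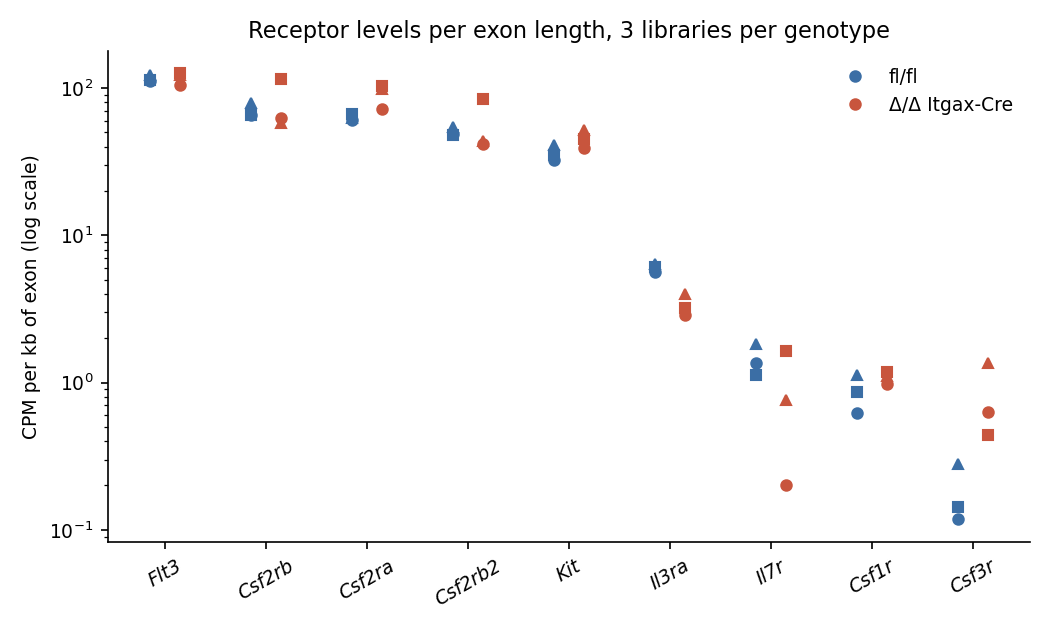
Level of each receptor in CPM per kb of exon (log axis) in 3 fl/fl (blue) and 3 Δ/Δ (red) libraries, one point per library, ordered by the fl/fl mean. Flt3, the GM-CSF receptor chains, Csf2rb2 and Kit lie above 30 CPM per kb in all 6 libraries and the other 4 receptors below 10.

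Between genotypes, 1 of the 9 receptors passed the test: Il3ra, which fell to 9.97 ± 1.69 CPM in Δ/Δ from 18.0 ± 1.09 CPM in fl/fl libraries. Among all tested genes 3.88% passed. In 3 of the 9 the libraries of the genotypes did not overlap, with Csf2ra and Csf3r above and Il3ra below in Δ/Δ, and the share of such genes among all tested was 26.0%. The 9 log2 fold changes had a median of 0.18, with 7 above and 2 below 0, next to a median of 0.00 over all tested genes. Kit, Csf2ra, Csf3r and Il3ra had an unadjusted p under 0.05. The share of all tested genes with such a p is not given here, so the list cannot be judged by it. DESeq2's Wald test, which in these libraries passed 7.02% of the genes it tested, passed Csf2ra, Csf3r and Il3ra, and limma-voom passed Il3ra alone.

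**Figure D2:**
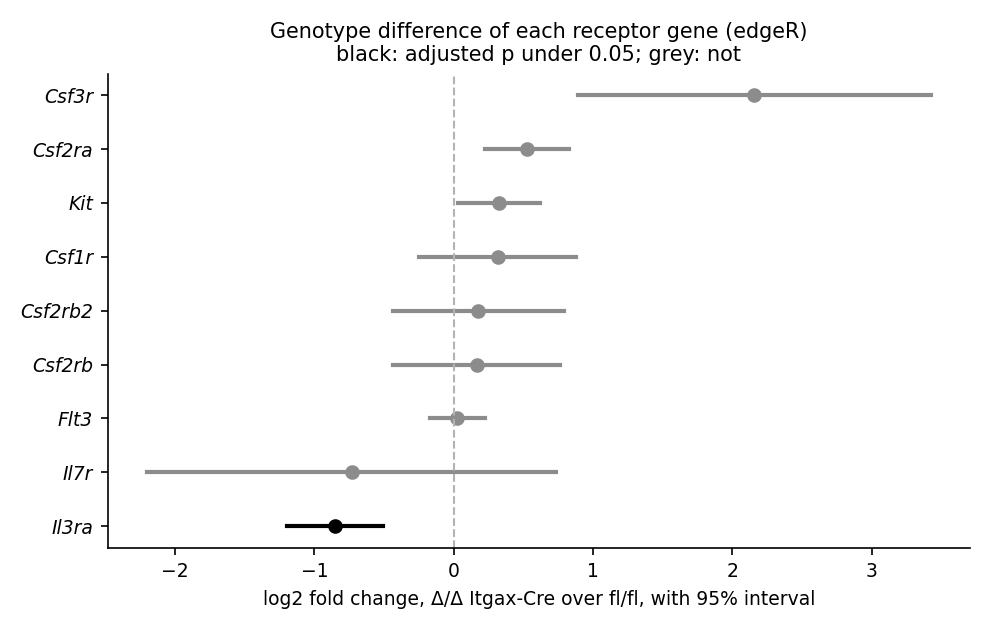
Log2 fold change of each receptor, Δ/Δ over fl/fl, with its 95% interval from edgeR's quasi-likelihood fit over 3 libraries per genotype. Only Il3ra (black, −0.85) passed the threshold, and the intervals of Csf3r, Csf2ra and Kit (grey) also leave out 0.

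**Figure D3:**
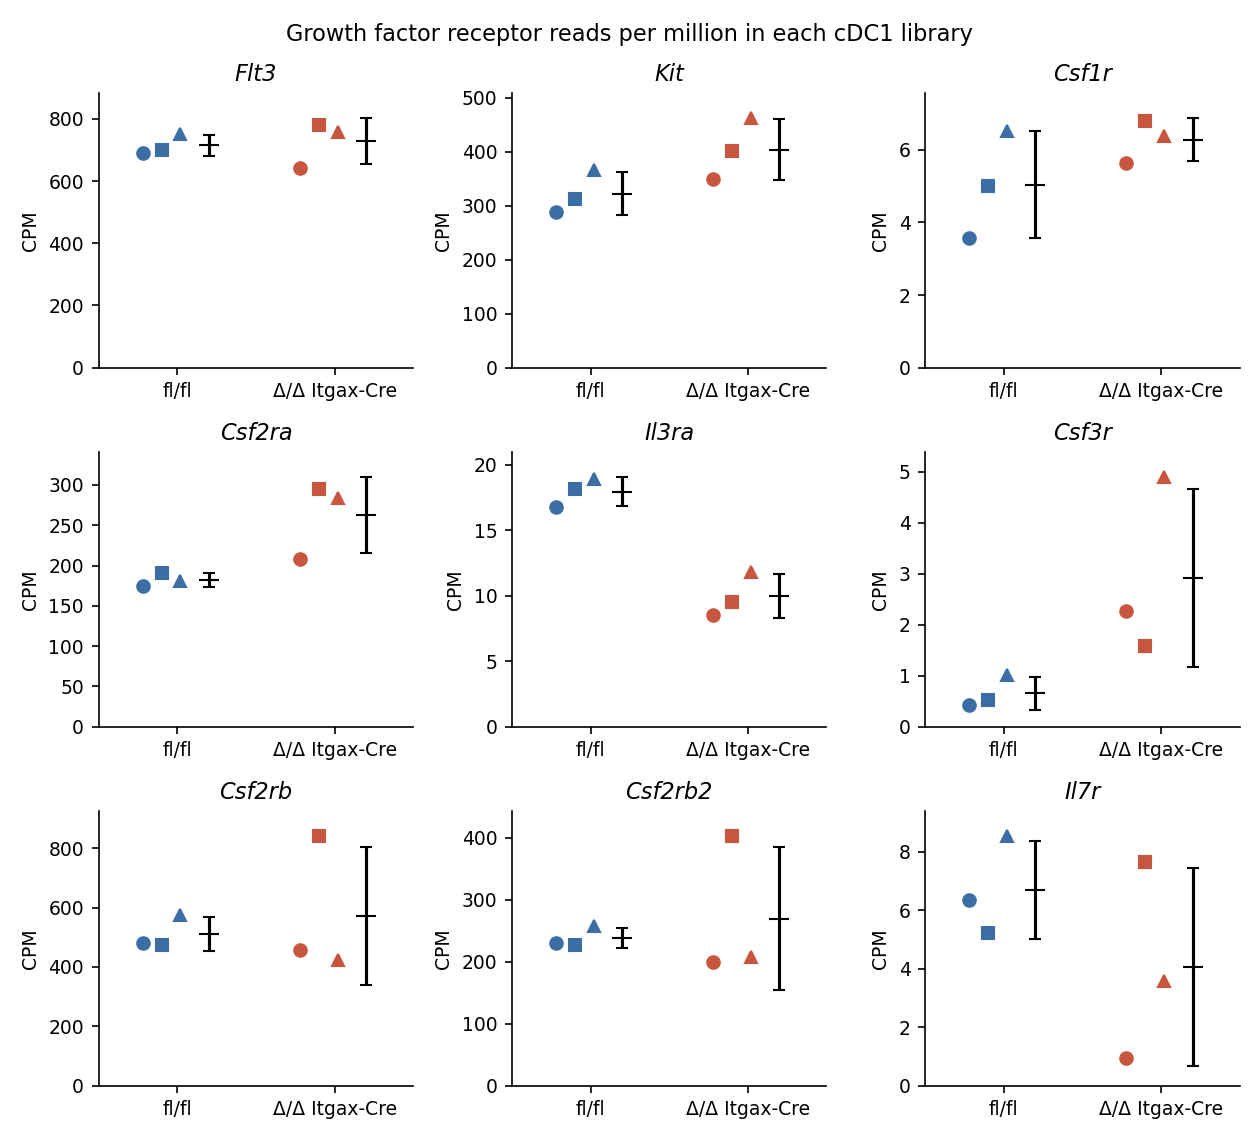
CPM of the 9 receptors in each fl/fl (blue) and Δ/Δ (red) library, with circles, squares and triangles for libraries 1, 2 and 3 and the mean ± SD in black. The genotypes separate for Csf2ra, Il3ra and Csf3r, and Δ/Δ 2 (red square) stands above all other libraries for Csf2rb and Csf2rb2.

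Flt3, the receptor of the cytokine in the culture medium, differed least. The gene (ENSMUSG00000042817.15, chromosome 5, 147330741 to 147400489, minus strand, on mm10/GRCm38 as all gene positions here) had 691, 702 and 753 CPM in the 3 fl/fl libraries (1, 2 and 3, in this order throughout) and 643, 781 and 759 CPM in the Δ/Δ ones. Both the lowest and the highest library were Δ/Δ. The log2 fold change was 0.03 (SE 0.08, 95% interval −0.17 to 0.22, edgeR adjusted p = 0.901).

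Kit, the stem cell factor receptor of progenitors and mast cells (ENSMUSG00000005672.12, chromosome 5, 75574916 to 75656722, plus strand), had 288, 313 and 366 CPM in the fl/fl libraries and 349, 402 and 462 CPM in the Δ/Δ ones. The genotypes overlapped by 1 library, fl/fl 3 lying above Δ/Δ 1. The log2 fold change of 0.33 (SE 0.12, 95% interval 0.03 to 0.62) did not pass after adjustment (edgeR adjusted p = 0.216). Of 7 other genes on a progenitor list 5 were tested and none passed with edgeR, 2 having an unadjusted p under 0.05. DESeq2 called Cd34 and Ly6a lower, and limma-voom and edgeR with no filter on low counts called Ly6a lower. The summed level of the 7 was 107 to 227 CPM in the fl/fl libraries and 43.8 to 81.5 CPM in the Δ/Δ ones. Most of that sum was Ly6a, the gene of Sca-1, at 87.8 to 206 and 25.2 to 63.1 CPM, while Gata2 had 0.559 ± 0.216 and 1.05 ± 1.39 CPM, highest in Δ/Δ 2. Mast cell and basophil genes summed to 0.578, 1.44 and 1.48 CPM in fl/fl and to 1.05, 16.1 and 3.56 CPM in Δ/Δ. Of these 8 only Hdc had enough reads for the edgeR test, and it did not pass (log2 fold change 0.40, edgeR adjusted p = 0.801). With no filter on low counts edgeR called Prss34 higher, and DESeq2 called Cpa3, Mcpt8 and Prss34 higher. The part of such cells in the Kit values was not tested.

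Csf1r encodes CD115, which the sort excluded, so the gate acted on its product. The gene (ENSMUSG00000024621.15, chromosome 18, 61100598 to 61132149, plus strand) had 3.58, 5.0 and 6.53 CPM in the fl/fl libraries and 5.63, 6.81 and 6.38 CPM in the Δ/Δ ones, which overlapped (log2 fold change 0.32, SE 0.24, edgeR adjusted p = 0.510). Of its 5774 exon bases 873 are shared with Hmgxb3 on the other strand, and the sources used here do not give the strand setting of the count, so some of the 93 to 154 reads per library may belong to that gene. Monocyte and macrophage genes, a list that holds Csf1r, summed without it to 2446 to 2865 CPM in the fl/fl libraries and 3459 to 4309 CPM in the Δ/Δ ones. Of its 9 other genes, Ccr2 (log2 fold change 0.96) and Adgre1 (0.91) passed, and most of the sum was Lyz2 and Ccr2, while Mertk had at most 0.551 CPM in any library. The part of such cells in the receptor values was not tested.

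Csf2ra, the alpha chain that binds GM-CSF (ENSMUSG00000059326.6, chromosome 19, 61223957 to 61228429, minus strand), had 175, 191 and 180.3 CPM in the fl/fl libraries and 208, 295 and 284 CPM in the Δ/Δ ones. All 3 Δ/Δ libraries lay above all 3 fl/fl libraries, Δ/Δ 1 by the least. The means were 182 ± 8.16 and 262 ± 47.0 CPM, a log2 fold change of 0.53 (SE 0.13, 95% interval 0.22 to 0.83), which missed the threshold (edgeR adjusted p = 0.0745). It was under the threshold by DESeq2 (adjusted p = 0.00248), with no filter on low counts (0.0288) and without Δ/Δ 1 (log2 fold change 0.67, 0.00315), over a range of 0.00248 to 0.285 in 12 alternatives.

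Il3ra, the alpha chain that binds IL-3 (ENSMUSG00000068758.8, chromosome 14, 14346275 to 14356011, plus strand), had 16.8, 18.2 and 18.9 CPM in the fl/fl libraries and 8.55, 9.51 and 11.8 CPM in the Δ/Δ ones, from 435 to 491 and 204 to 269 reads. Only 46 of its 2967 exon bases are shared with a gene on the other strand. No library of one genotype came near the other, the gap between the sets being wider than the spread within either. It fell by 0.85 on the log2 scale (SE 0.15, 95% interval −1.19 to −0.50, edgeR adjusted p = 0.0254), or 1.80-fold. The call was lost without fl/fl 1 (adjusted p = 0.113), fl/fl 2 (0.132) or fl/fl 3 (0.102), with log2 fold changes of −0.90, −0.84 and −0.81, and the adjusted p ran from 7.55e-05 to 0.132 over 12 alternatives. Basophil and mast cell genes, from cells rich in the IL-3 receptor, had the sums given with Kit. Their sum was highest in Δ/Δ 2, and the part of such cells in the Il3ra values was not tested.

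The alpha chains thus lay on opposite sides within the same libraries. For each read of Il3ra there were 10.4, 10.5 and 9.54 reads of Csf2ra in fl/fl and 24.4, 31.0 and 24.0 in Δ/Δ libraries (10.2 ± 0.536 and 26.4 ± 3.95), a ratio formed after the values had been seen and so not tested. It does not depend on how libraries are scaled. Genes of cDC2, the other conventional subset, stood with Csf2ra, summing to 224 to 371 CPM in the fl/fl libraries and 519.5 to 753 CPM in the Δ/Δ ones, and 3 of 10 passed, all higher (Cd209a, Klf4 and Cd4), though Sirpa, the gene of the excluded CD172a, was not among them. Plasmacytoid genes summed to 225 to 242 and 245 to 294 CPM. Of 8, 6 were tested, 5 with a log2 fold change above 0 and 1 below, and Ccr9 alone passed, higher. Siglech had 7.78 to 10.7 and 16.5 to 37.5 CPM (log2 fold change 1.44, edgeR adjusted p = 0.0571) and was called higher by DESeq2. Bst2 had 89.0 to 109 and 70.5 to 78.9 CPM (log2 fold change −0.41, edgeR adjusted p = 0.0572) and was called lower by DESeq2. The part of either list in the receptor values was not tested.

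The beta chains are encoded by neighbouring paralogs on chromosome 15, Csf2rb on the plus strand (ENSMUSG00000071713.6, 78325752 to 78353847) and Csf2rb2 on the minus strand (ENSMUSG00000071714.7, 78282507 to 78305721). Their likeness matters for the counts, because only reads that map to a single place were kept. The coding sequences of 2688 and 2634 bases were identical at 95.2% of 2628 aligned positions, and 15.8% and 16.1% of the 75-base windows in them, the read length, occurred without mismatch in the other gene. The first 90 coding bases show how little tells them apart, the 3 differing bases being in capitals (GENCODE M21 transcripts, 5′ to 3′).
Csf2rb: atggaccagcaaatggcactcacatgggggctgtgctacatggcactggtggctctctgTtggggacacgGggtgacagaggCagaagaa
Csf2rb2: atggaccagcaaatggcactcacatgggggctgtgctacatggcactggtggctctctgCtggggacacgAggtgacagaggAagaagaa

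The direction of both beta chains rested on a single library. Csf2rb had 479, 475 and 575 CPM in the fl/fl libraries and 456, 839.6 and 422 CPM in the Δ/Δ ones. Csf2rb2 had 231, 226 and 257 CPM in the fl/fl libraries and 199, 402 and 207 CPM in the Δ/Δ ones. For both genes Δ/Δ 2 was the highest of all 6 libraries and Δ/Δ 1 and 3 were the lowest. The log2 fold changes of 0.17 (SE 0.25, 95% interval −0.43 to 0.77, edgeR adjusted p = 0.765) and 0.18 (0.26, −0.44 to 0.79, 0.756) turned to −0.22 and −0.23 without Δ/Δ 2, still over the threshold (0.282 and 0.145). Summing the reads of both genes gave 0.17 (adjusted p = 0.762). The paralogs kept to one ratio throughout, with 2.08, 2.10 and 2.24 reads of Csf2rb per read of Csf2rb2 in fl/fl and 2.29, 2.09 and 2.04 in Δ/Δ libraries (2.14 ± 0.0866 and 2.14 ± 0.132).

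Csf3r, the G-CSF receptor (ENSMUSG00000028859.14, chromosome 4, 126024550 to 126044440, plus strand), was the scarcest member and the one with the widest difference. Its reads numbered 11, 14 and 24 in fl/fl and 56, 34 and 111 in Δ/Δ libraries, or 0.424, 0.519 and 1.02 against 2.27, 1.58 and 4.88 CPM. Every Δ/Δ library lay above every fl/fl library, with Δ/Δ 3 far above the rest. The log2 fold change was 2.16 (SE 0.54, 95% interval 0.89 to 3.42, 4.46-fold), over the threshold with an edgeR adjusted p of 0.0782. It was under the threshold by DESeq2 (adjusted p = 0.00340), with no filter (0.0329) and without Δ/Δ 2 (log2 fold change 2.45, 0.0419). Without Δ/Δ 3 the log2 fold change was 1.56 (0.177). The adjusted p ran over a range of 0.00340 to 0.285 in 12 alternatives.

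Other neutrophil genes were scarce and moved in both directions. Ly6g and Elane, which define neutrophils and their precursors, had no reads in any library, which allows up to 0.0393 CPM in the fl/fl libraries and 0.0435 CPM in the Δ/Δ ones (3 reads pooled over 3 libraries, for counting error only). Of the 12 neutrophil genes other than Csf3r, 5 had enough reads to test and none passed with edgeR, DESeq2 or limma-voom, 1 having an unadjusted p under 0.05, and without a filter Ngp, a granule protein, was lower. Of the 5, Mmp9 had the higher mean in Δ/Δ libraries (0.403 ± 0.289 and 0.728 ± 0.720 CPM) and the other 4 the lower. Among those too scarce to test, Retnlg had reads in Δ/Δ 3 alone (0.308 CPM), the library highest for Csf3r, and Cxcr2 was highest in Δ/Δ 2 (1.35 CPM against at most 0.297 CPM). Their summed level was 4.86, 18.9 and 22.1 CPM in the fl/fl libraries and 1.01, 11.4 and 6.91 CPM in the Δ/Δ ones, and the genotypes overlapped. Cd14, a monocyte gene, was also highest in Δ/Δ 3, with 12.1 CPM against at most 1.53 CPM in the other 5 libraries, and the part of monocytes or neutrophils in the Csf3r value was not tested.

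Il7r, the IL-7 receptor alpha chain (ENSMUSG00000003882.5, chromosome 15, 9505788 to 9530176, minus strand), had 6.36, 5.22 and 8.52 CPM in the fl/fl libraries and 0.932, 7.65 and 3.56 CPM in the Δ/Δ ones. Δ/Δ 2 lay within the fl/fl range and Δ/Δ 1 and 3 below it. The log2 fold change of −0.73 (SE 0.62, 95% interval −2.20 to 0.74, edgeR adjusted p = 0.562) ran from −1.58 to −0.26 with 1 library left out. Of T, NK and innate lymphoid cell genes, the cells that use IL-7 most, the 8 genes other than Il7r summed to 0.608 to 1.72 CPM per library, less than Il7r alone in each of the 6. Genes of B cells, whose precursors bear the receptor, summed to 31.0, 18.97 and 26.1 CPM in fl/fl and to 13.1, 49.97 and 24.6 CPM in Δ/Δ, in the same order over the Δ/Δ libraries as Il7r, and their part in its values was not tested.

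Δ/Δ 2 stood apart in more than the beta chains. Of 13 genes that STAT5 is known to regulate, most of them induced and Bcl6 repressed, 11 (all but Bcl2 and Myc) were highest there, and of all tested genes 18.7% were. For some of the 11 the margin was small. Id2 had 1157 CPM there and 1151 CPM in Δ/Δ 3, and Pim2 7.79 CPM there and 7.50 CPM in fl/fl 3. The repressed Bcl6 was among the 11, with 279 CPM there and 260 CPM in fl/fl 3. Cish, an inhibitor made in response to the signal, had 0.270, 1.63 and 4.07 CPM in the fl/fl libraries and 1.5, 29.3 and 1.06 CPM in the Δ/Δ ones. Pim1, a survival kinase, had 141, 131 and 173 against 166, 402 and 221 CPM, and Ccnd2, a cyclin, 20.6, 24.9 and 33.3 against 21.3, 72.8 and 36.0 CPM. The same library was highest for Itgae, the gene of CD103 (891 CPM against 151 to 258 CPM in the other 5), and for the basophil genes Mcpt8 (4.80 CPM) and Prss34 (5.50 CPM). Genes of mature dendritic cells, among them Ccr7 and Fscn1, summed to 1315, 935 and 1153 CPM in the fl/fl libraries and 363, 2186 and 574 CPM in the Δ/Δ ones. Δ/Δ 1 was thus lowest for the mature genes as for Il7r, and Δ/Δ 2 highest for them as for the beta chains. Whether these cells or states carry the receptor differences was not tested. Of the receptors without overlap between genotypes, Csf2ra and Csf3r had log2 fold changes of 0.43 and 2.45 without Δ/Δ 2, and Il3ra one of −0.82 (edgeR adjusted p = 0.112, 0.0419 and 0.0453).

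**Figure D4:**
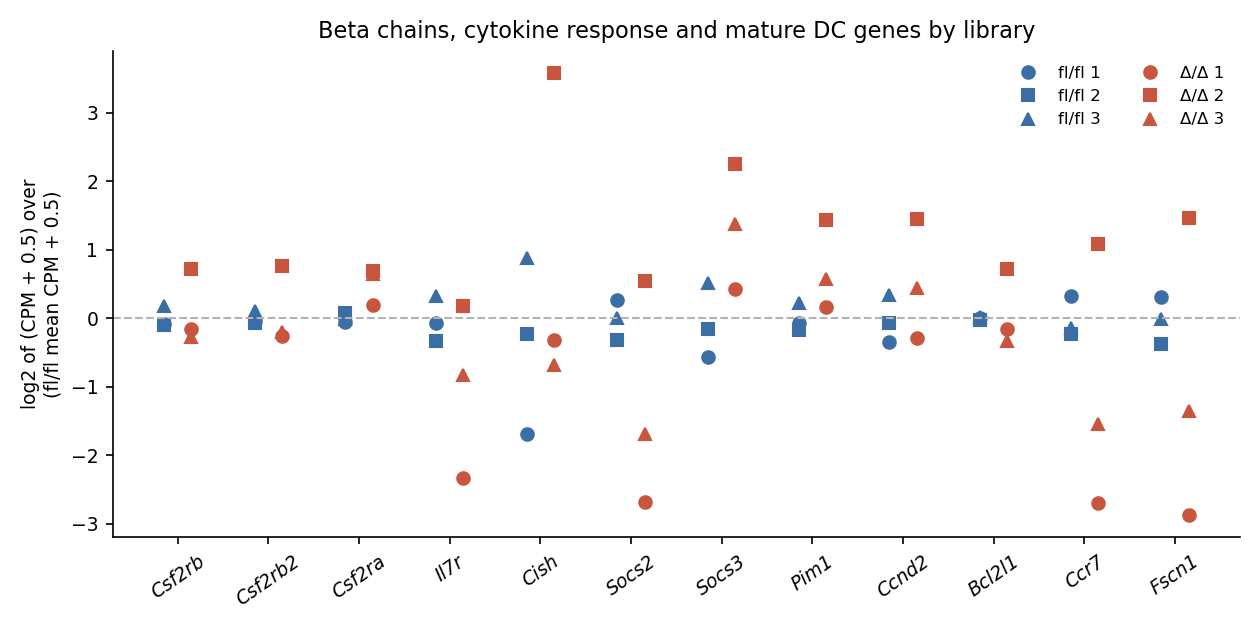
Beta chains, Csf2ra, Il7r, 6 of the 13 STAT5-regulated genes (chosen after their values were seen, without Bcl2 and Myc) and 2 mature dendritic cell genes in each library, as log2 of (CPM + 0.5) over (fl/fl mean CPM + 0.5), with circles, squares and triangles for libraries 1, 2 and 3. Δ/Δ 2 (red square) is the highest point for every gene plotted but Il7r, and Δ/Δ 1 (red circle) the lowest for Csf2rb2, Il7r, Socs2, Ccr7 and Fscn1.

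The ligands of these receptors were nearly absent from the cells themselves. Of 10 ligand genes, Kitl, Il34, Csf3, Tslp and Il3 had no reads in any library, Csf2, the gene of GM-CSF, had 1 library at 0.0385 CPM, Il5 1 at 0.0466 CPM, and Il7 at most 0.280 CPM. Flt3l had 4.95 to 7.31 CPM and Csf1 0 to 2.00 CPM, and neither passed with edgeR, DESeq2 or limma-voom, nor had an unadjusted p under 0.05.

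Among 20 other receptor chains of these families, 16 were tested, and 3 were higher and none lower, next to 3.88% of all tested genes that passed. Il6st, the gp130 chain shared by the IL-6 family, rose from 802 ± 60.5 to 1261 ± 157 CPM (log2 fold change 0.65, edgeR adjusted p = 0.0204). Il13ra1, which pairs with the IL-4 receptor, rose from 45.2 ± 12.5 to 110.4 ± 24.7 CPM (1.29, 0.0285), and Tgfbr2, a TGF-beta receptor, from 64.5 ± 1.55 to 83.7 ± 5.37 CPM (0.38, 0.0276). In each of the 3 all Δ/Δ libraries lay above all fl/fl libraries. The partners of IL7R did not pass with edgeR: Il2rg had 14.3, 12.0 and 16.7 CPM in the fl/fl libraries and 15.4, 33.8 and 24.9 CPM in the Δ/Δ ones (0.78, 0.185), and Crlf2 68.3 to 90.4 CPM in all (0.14, 0.510). DESeq2 called Il2rg higher. Per kb of exon, Il10ra (81.6 ± 6.54 CPM per kb in fl/fl), Il6st (72.3 ± 5.45) and Crlf2 (47.3 ± 0.822) led this list, at levels near those of the GM-CSF receptor chains. Il5ra, the IL-5 binding partner of Csf2rb, had 2.48 to 2.81 CPM in the fl/fl libraries and 1.42, 6.29 and 2.29 CPM in the Δ/Δ ones, with Δ/Δ 2 again highest.

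Signalling genes downstream that passed included Stat5a, higher, and Mtor, lower, in Δ/Δ. Stat5a, which carries the signal of the beta chains, had 85.3, 89.7 and 93.9 CPM in the fl/fl libraries and 107, 121 and 129.9 CPM in the Δ/Δ ones (log2 fold change 0.41, edgeR adjusted p = 0.0460), and its neighbour Stat5b 109, 106 and 112 against 129.8, 134 and 155 CPM (0.36, 0.0570). Mtor, a growth kinase, fell by 0.40 on the log2 scale (edgeR adjusted p = 0.0356). The most abundant of the list per kb, the adaptor Grb2, Plcg2 and the kinase Jak2, which is bound to the beta chains, did not pass (log2 fold changes 0.04, 0.00 and 0.14). Jak2 was highest in Δ/Δ 2, with 688 CPM against 353 to 501 CPM in the other libraries.

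Of 15 genes that restrain receptor signalling, 13 were tested and none passed with edgeR, DESeq2 or limma-voom, Socs3 alone having an unadjusted p under 0.05 (log2 fold change 1.62, edgeR adjusted p = 0.136). The phosphatase gene Ptpn6 led this list per kb of exon (215 ± 2.17 CPM per kb in fl/fl and 236 ± 20.5 in Δ/Δ), followed by Cbl and Inpp5d. Nor did any of 13 STAT5-regulated genes pass with these tools, 2 having an unadjusted p under 0.05, with a median log2 fold change of 0.15 next to 0.00 over all tested genes. Id2 (449 ± 12.7 CPM per kb in fl/fl) and Mcl1 (269 ± 12.9) were the most abundant of them, followed by Pim1.

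The genes whose log2 CPM followed Il3ra most closely over the 6 libraries were Clec12a (Pearson's r = 0.999), the antisense RNA 4930455G09Rik (0.994), Itgax (0.994), Tbrg1 (0.994) and Smpdl3a (0.992). A correlation above 0.9 was found for 344 of the 12893 genes compared. The points share their genotypes and libraries, and the values are a description. Clec12a, an inhibitory lectin of myeloid cells, had 75.6, 81.7 and 85.1 CPM in the fl/fl libraries and 30.3, 36.1 and 48.1 CPM in the Δ/Δ ones. Itgax, whose promoter drives the Cre and whose product CD11c was used in the sort, had 114, 128 and 153 against 44.7, 55.1 and 69.0 CPM (the fall given above). Il3ra and Itgax thus stood in the same order in all 6 libraries.

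Promoters were searched because c-Jun and JunB bind AP-1 sites. The search covered RefSeq promoters on GRCm38.p6 for 7 of the 9 genes (8 promoters, the 250 bases before each RefSeq start). Promoters of Csf1r and Csf2rb were not searched, so nothing is said of their motifs. None of the 8 promoters held the AP-1 motif TGANTCA on either strand, which occurs in 6.75% of 32851 promoters of this length. The core motif of PU.1, AGGAAGT, a factor that many myeloid receptor genes use, occurred in 2 genes, Il3ra and Il7r, and in 7.69% of all promoters. It lay 133 and 42 bases before their RefSeq starts, which differ from the gene starts given above. By those gene positions both matches lay inside the gene. The cyclic AMP response element TGACGTCA, which was searched for only after the sequences had been seen, occurred once, in Csf2ra, 84 bases before the start, and in 1.55% of all promoters. A match is a description of these letters, and the window says nothing of more distant elements. The absence of AP-1 matches covers the motif TGANTCA alone. Composite sites that Jun proteins bind together with interferon regulatory factors, which the authors describe, were not searched for. For the 3 genes whose genotypes did not overlap, the promoter bases outside annotated exons are given, or for Il3ra, where most of the window lies in an annotated exon, the motif with its flanks, with motifs in capitals and each read 5′ to 3′ along its gene: Csf2ra at chr19:61228430-61228668 (minus strand), Csf3r at chr4:126024409-126024549 (plus strand) and Il3ra at chr14:14346344-14346372 (plus strand).
Csf2ra: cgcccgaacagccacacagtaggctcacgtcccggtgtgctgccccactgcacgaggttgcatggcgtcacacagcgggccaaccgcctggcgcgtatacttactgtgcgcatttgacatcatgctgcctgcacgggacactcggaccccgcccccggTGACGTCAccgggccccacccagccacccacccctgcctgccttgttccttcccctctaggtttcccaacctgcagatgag
Csf3r: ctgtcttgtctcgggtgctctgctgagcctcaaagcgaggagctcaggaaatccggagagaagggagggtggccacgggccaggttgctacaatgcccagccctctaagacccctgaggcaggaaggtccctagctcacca
Il3ra: cccactatctcAGGAAGTtgctcaatctc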

How the data were processed

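Poly(A) RNA was made into strand-directional libraries and read from both ends, with 75 bases per read, with a NextSeq500 instrument. For alignment to mm10 the authors used STAR 2.6.1a (2-pass mode, Gencode vM19), and they deposited its counts of reads per gene for each library, neither normalized nor pooled. The sources used here do not give the strand column. STAR's tallies of reads outside genes (20.3 to 20.9% of reads) were left out. Of 54532 identifiers 54495 were found in GENCODE M21, which gave names, coordinates and exon lengths.

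The 9 receptors, the other gene lists, the tests and the alternatives were chosen with earlier results of these data known. The counts were fitted with edgeR 4.0.16 (R 4.3.3) by glmQLFit and glmQLFTest on genotype alone, after TMM scaling and filterByExpr (minimum count 10, minimum total 15), and p-values were adjusted by Benjamini-Hochberg over 12894 genes. DESeq2 1.42.0, limma-voom (limma 3.58.1), DESeq2's size factors, other filters, each library left out and a replicate block were alternatives. No gene set test was run. Lists are described by counts and medians, and a receptor on a list is not counted in it. Named genes are the receptors, Jun and Junb, sort genes, ligands, members of a list that passed or had the highest level per kb, markers needed to describe other cells, and the 5 genes most like the receptor with the smallest adjusted p. Genes named for their value in Δ/Δ 2 or Δ/Δ 3, and Stat5b, Il2rg and Il5ra, were chosen after their values were seen. Some results under this rule are not reported here. All libraries were counted as replicates. Pairs of libraries of a genotype differed by more than sampling noise (chi-square per degree of freedom 6.76 to 42.0), which does not show whether they came from separate mice. The steps were tested on simulated counts. Python 3.11.15, pandas 2.3.3, Biopython 1.88 (coding sequence alignment) and matplotlib 3.10.9 were also used.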

Additional observations from a re-analysis of the deposited data

How the results depend on the processing

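The 9 receptor results were recomputed 109 times, of which 94 kept direction and side of the threshold, 3 lost the call, 8 gained one and 4 turned direction. The number of receptors that passed was 1 with edgeR's quasi-likelihood test, 3 by DESeq2 (Csf2ra 0.53, Csf3r 2.16 and Il3ra −0.85 as log2 fold changes), 3 with no filter on low counts (Csf2ra 0.52, Csf3r 2.16 and Il3ra) and 0 to 2 with 1 library left out. The genes past the threshold numbered 500, and 1084 by DESeq2, 762 with no filter and 95 to 1320 with 1 library left out. With a log2 fold change of at least 1 as well they numbered 240, 432 by DESeq2 and 74 to 579 with 1 library left out. Fewest passed without an fl/fl library, where Il3ra also lost its call. With 1 library left out the log2 fold changes ran from −0.03 to 0.11 for Flt3 (−0.029 without Δ/Δ 2 and −0.0073 without Δ/Δ 3), 0.22 to 0.42 for Kit, 0.12 to 0.54 for Csf1r, 0.43 to 0.67 for Csf2ra, −0.22 to 0.34 for Csf2rb, −0.23 to 0.36 for Csf2rb2, 1.56 to 2.61 for Csf3r, −1.58 to −0.26 for Il7r and −0.99 to −0.75 for Il3ra.

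With the replicate number as a block, 3 receptors passed, Kit (log2 fold change 0.32, adjusted p = 0.0423), Csf3r (2.10, 0.0405) and Il3ra (−0.86, 0.0341), and 417 genes in all, 207 with the fold limit. The labels do not say whether the numbers pair the libraries. Deviations of same-numbered libraries from their genotype means correlated at 0.09, −0.15 and 0.20, and not every library was most like that of its own number. With 3 libraries per genotype these values cannot settle whether the libraries were paired. With 3 cultures per genotype and 11 to 24 reads of Csf3r in fl/fl libraries, the precision of the scarce receptors is limited.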
